A study of Mus musculus with 1 sample.

Results

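The alveolar macrophages (AMs) described here are the 60 cells of a single-cell library that scored highest for 10 genes of G2 and M phase, out of 2055 cells in all (2.92%). The score of a cell was the mean natural log value of Mki67, Top2a, Birc5, Cdk1, Ccnb2, Nusap1, Ube2c, Cenpf, Tpx2 and Hmmr. The members were thus chosen by measured values, and these 10 genes serve as a description only. The AMs were sorted as CD45+CD11c+SiglecF+ cells from the lung of 1 adult WT mouse that carried floxed Hdac3 alleles and no Cre (Hdac3fl/fl). The label gives an age of 8 to 12 weeks and a strain of FVB/NJ origin backcrossed to C57BL/6. The 10x Genomics 3' assay with v2 chemistry, loaded with 5000 cells, gives each cell a barcode and counts a molecule once by its unique molecular identifier (UMI). The library came from 1 mouse, so cells are not replicates, no test between mice exists, and every interval below is a 95% interval that covers counting error only. The library of Hdac3-deficient AMs was not analysed here.

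AMs reside in the airspaces, clear surfactant and debris, and maintain themselves in the adult lung by local division. A dividing cell copies its DNA in S phase, prepares the machinery of division in G2 and separates its chromosomes in M phase. Cyclin A and cyclin B bind the kinase CDK1 to start mitosis. Microtubules then attach to kinetochores on the centromeres, and the anaphase promoting complex, activated by CDC20, marks cyclin B and securin for destruction so that the chromosomes part. Many of the genes involved are held off in resting cells by the DREAM complex and switched on in G2 by B-MYB and FOXM1, through a promoter element named the cell cycle genes homology region (CHR, with the letters TTTGAA or TTCGAA) next to CCAAT boxes bound by NF-Y.

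The promoters of 3 scoring genes and of 4 other genes that are described below are shown because they carry these elements close to the start of transcription. The windows run from 150 bases before to 30 bases after the start in RefSeq on GRCm38.p6, 5' to 3' on the strand of the gene, and capitals mark every match to these elements. The element TTTGAA reads TTCAAA where it lies on the other strand, and a CCAAT box reads ATTGG.
Ube2c promoter: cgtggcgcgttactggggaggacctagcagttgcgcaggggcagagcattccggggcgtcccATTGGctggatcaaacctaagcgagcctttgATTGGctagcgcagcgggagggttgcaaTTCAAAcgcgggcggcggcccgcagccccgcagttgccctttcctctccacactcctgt
Ccnb2 promoter: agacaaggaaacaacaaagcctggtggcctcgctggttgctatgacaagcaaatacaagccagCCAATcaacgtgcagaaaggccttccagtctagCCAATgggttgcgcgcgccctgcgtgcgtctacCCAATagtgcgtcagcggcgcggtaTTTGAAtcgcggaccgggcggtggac
Cdk1 promoter: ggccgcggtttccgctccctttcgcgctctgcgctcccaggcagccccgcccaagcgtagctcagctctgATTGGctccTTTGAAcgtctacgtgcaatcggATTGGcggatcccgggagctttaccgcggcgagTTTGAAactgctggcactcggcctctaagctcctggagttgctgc
Cdc20 promoter: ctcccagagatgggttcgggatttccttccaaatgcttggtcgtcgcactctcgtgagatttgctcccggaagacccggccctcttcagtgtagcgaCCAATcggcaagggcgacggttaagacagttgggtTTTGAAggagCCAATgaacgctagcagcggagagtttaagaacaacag
Kif11 promoter: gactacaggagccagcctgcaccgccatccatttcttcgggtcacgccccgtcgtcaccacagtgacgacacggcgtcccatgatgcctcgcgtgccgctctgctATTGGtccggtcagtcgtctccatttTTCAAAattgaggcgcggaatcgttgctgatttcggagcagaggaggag
Prc1 promoter: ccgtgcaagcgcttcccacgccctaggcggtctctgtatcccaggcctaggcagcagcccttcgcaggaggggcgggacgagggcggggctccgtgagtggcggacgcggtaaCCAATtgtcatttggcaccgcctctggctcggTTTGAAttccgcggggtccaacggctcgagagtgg
Cdca8 promoter: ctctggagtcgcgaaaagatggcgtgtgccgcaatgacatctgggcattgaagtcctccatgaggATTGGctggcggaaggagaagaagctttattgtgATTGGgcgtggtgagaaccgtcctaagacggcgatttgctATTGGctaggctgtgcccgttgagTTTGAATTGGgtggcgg
They lie at Ube2c chr2:164769779-164769958 (plus strand), Ccnb2 chr9:70421525-70421704 (minus strand), Cdk1 chr10:69352883-69353062 (minus strand), Cdc20 chr4:118437314-118437493 (minus strand), Kif11 chr19:37376232-37376411 (plus strand), Prc1 chr7:80294301-80294480 (plus strand) and Cdca8 chr4:124936888-124937067 (minus strand). In Cdca8 a TTTGAA and a CCAAT on the other strand overlap by 1 base. Among promoters taken over 250 bases before to 50 bases after the start, both a CHR element and a CCAAT box were found in 7 of the 9 scoring genes that matched RefSeq and in 44 of 97 matched genes (45.4%) of 116 other genes of G2 and M phase. Of all 27025 genes with a promoter in RefSeq, 8.61% held both. The separate shares in the 97 genes were 59.8% for a CHR element and 68.0% for CCAAT, against 21.7% and 41.1% of all genes. Birc5 and Nusap1 held none of these letters in the window. For the S phase list, with 34 of 46 genes matched, and the identity list of AMs, with 30 of 39, fewer than 80% of the genes had a promoter and no share is given. A match is a description of letters and not evidence of binding.

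The members held 279875 of the 7222978 UMIs of the library. The score of the members ran from 0.798 to 1.93 (median 1.16), and 1642 of the 1995 other cells had no UMI of any scoring gene. The score had no gap at the limit of the selection. The members ranked 51 to 60 scored 0.798 to 0.909, and the 10 cells just outside scored 0.688 to 0.796. These groups of 10 cells had medians of 98.3 and 102 UMIs of the 116 other G2/M genes per 10000 UMIs, so the limit cuts through a continuous range. A member carried a UMI of 4 to 10 of the scoring genes, and no other cell carried more than 6. Top2a, which untangles DNA, had a UMI in 55 members, and Birc5, the survivin subunit of the chromosomal passenger complex, in 57. Hmmr, which binds spindle microtubules, was the sparsest of the scoring genes, with a UMI in 19 members.

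**Figure D1:**
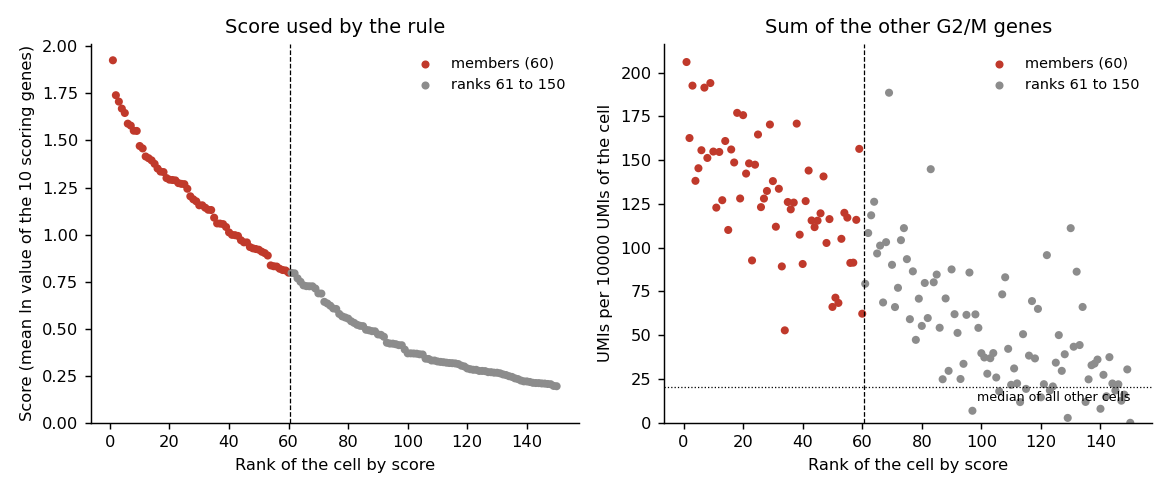
Score (left, mean ln value) and summed UMIs of 116 other G2/M genes per 10000 UMIs of the cell (right) against the rank of the cell by score, for the 150 highest cells. Red points are the 60 members, grey points the next 90 cells, the dashed line marks the limit of the selection and the dotted line the median of all other cells (20.4). The score passes the limit without a step.

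Members had more UMIs than the other cells. The lowest, median and highest values were 1294, 4547.5 and 7271 UMIs in the members and 1143, 3247 and 8603 in all other cells, a ratio of 1.40 between the medians. The ranges overlap, and 14 members lay below the median of the other cells. The members had 836 to 2478 detected genes (median 1955), against 528 to 2495 (median 1443) in the other cells. The methods of the study exclude cells above a fixed number of genes as possible doublets, so any AM in division with more detected genes than that is not in the data. No doublet caller was run here, and the part of doublets among the 10 members above the 95th percentile of UMIs of the other cells (6411) was not tested. With each cell thinned to 2000 UMIs, which 57 members and 1699 other cells reached, the median number of detected genes was 1093 and 1036. The mitochondrial share of UMIs had a median of 2.68% in the members and 3.23% in the other cells, and exceeded 5% in 7 members (11.7%) and 377 other cells (18.9%).

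**Figure D2:**
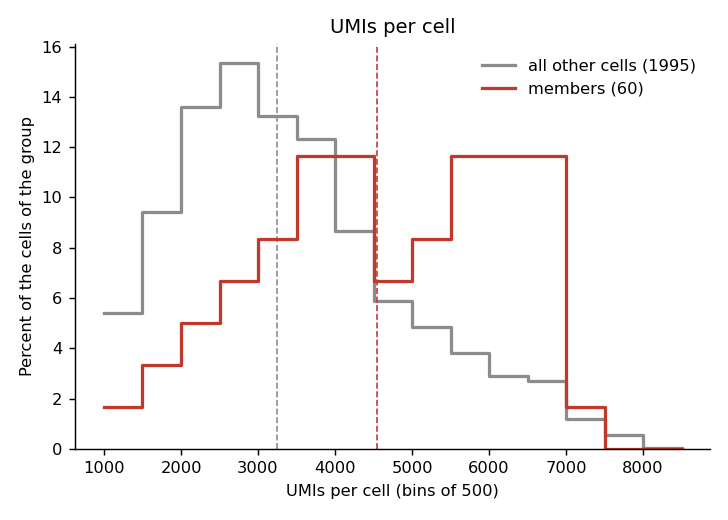
Percent of the cells of each group in bins of 500 UMIs per cell, for the 60 members (red) and the 1995 other cells (grey), with dashed lines at the medians of 4547.5 and 3247. The distributions overlap, with the members shifted to higher totals.

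The members also carried the identity of AMs. Of 10 marker genes of AMs (Siglecf, Itgax, Marco, Pparg, Fabp4, Ear2, Car4, Chil3, Mrc1 and Ltc4s), a member had a UMI of 2 to 10, with a median of 7, and the other cells also had a median of 7. These counts were not thinned, and the median depth was 4547.5 UMIs in the members and 3247 in the other cells. Per 10000 UMIs a longer list of 39 identity genes, described below, had a median ratio of 0.716. Markers of other cell types were low. Dendritic cell markers had no UMI in any member, and 4 of 7 such genes were listed in the library. Lymphocyte markers gave 0.0715 UMIs per 10000 in the members and 1.48 in the other cells, monocyte and interstitial macrophage markers 0.607 and 0.949, and epithelial markers 4.36 and 6.06. Summed neutrophil and eosinophil markers came to 0.536 and 0.475 UMIs per 10000. Endothelial and stromal markers gave 2 UMIs in all members and 11 in the other cells, or 0.0715 and 0.0158 per 10000. The interval of their ratio, 0.486 to 20.7, holds 1. The summed level in single members ran from 0 to 17.1 for epithelial markers and reached at most 5.15 for each of the other lists, while in the other cells it reached 41.6 for epithelial and 2391 for lymphocyte markers. Apoe, which marks interstitial macrophages and monocyte-derived cells, had 1 of the 17 UMIs of its list in the members and 434 of 659 in the other cells. Of the 2 genes of this list with at least 50 UMIs, Apoe had a ratio of 0.0572 and the other gene one of 1.68, so the list did not go 1 way.

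Genes were compared by their summed UMIs per 10000 UMIs of each group. A gene is called higher when its level in the members is at least 2 times that in all other cells (genes with at least 50 UMIs in the library), and lower when it is at most 0.5 times (at least 300 UMIs). Outside the scoring genes, 655 of 7761 genes (8.44%) were higher and 91 of 3227 (2.82%) were lower. Of the 116 other G2/M genes, 58 had at least 50 UMIs and 52 of these were higher, with a median ratio of 8.31 beside 1.01 over all genes. The summed level of all 116 genes ran from 52.8 to 206 UMIs per 10000 in single members (median 128) and from 0 to 189 in the other cells (median 20.4). The highest of the other cells thus reach the range of the members. Since mitotic genes are expressed together, and the members were chosen by 10 of them, these counts describe the selected cells and test nothing. Some of the genes reached 50 UMIs mainly through the members, such as Kif11 with 44 of 61 UMIs in them, Ccnb1 with 39 of 63 and Cdc20 with 36 of 51, and such genes could only come out higher. The counts and medians below are over the genes that reached the minimum, and the other genes of each list were not called.

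Genes that start mitosis were among the most concentrated in the members. Ccnb1, the gene of cyclin B1 (chromosome 13, 100778650 to 100786570 in GRCm38), had 39 UMIs in the 60 members and 24 in all 1995 other cells, or 1.39 and 0.0346 UMIs per 10000. The ratio was 40.3 (23.6 to 70.1). Stretches of 98 bases near the 3' end of its transcripts also occur in annotated copies for 14.1%, so part of its reads cannot be assigned to 1 gene. Ccna2 (cyclin A2) had a ratio of 37.6 (23.4 to 61.2) and Pbk, a mitotic kinase, one of 38.7 (22.8 to 66.7). The list has 19 genes, and the 8 with at least 50 UMIs were all higher. The phosphatase Cdc25b, which activates CDK1, stood at 7.34 times, and Mastl, the kinase that restrains the opposing phosphatase PP2A, at 3.49 times (1.61 to 6.81). The CDK subunits Cks1b (ratio 5.62) and Cks2 (4.39) were more widespread, with UMIs of Cks2 in 54 members (90.0%) and 45.2% of the other cells.

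Genes of the anaphase promoting complex (APC/C) were higher in part, with 5 of the 9 that had at least 50 UMIs. Cdc20, the activator of the complex in mitosis (chromosome 4, 118432901 to 118437352), had 36 UMIs in the members and 15 in the other cells, a ratio of 59.5 (31.8 to 117). It was detected in 17 members (28.3%, with an interval of 17.5% to 41.4%), against 0.652% of all other cells. Thinned to 2000 UMIs, the shares were 17.5% and 0.530%. Ube2s, the enzyme that extends ubiquitin chains for the APC/C, had a ratio of 5.83 (5.07 to 6.68) and was found in 59 of the 60 members. Fzr1, the activator used after mitosis and in G1, stood at 2.90 times (1.40 to 5.44). The core subunits Anapc5 and Cdc27 had ratios of 3.07 and 2.38. Other core subunits were not called, with ratios of 1.5 for Anapc11, 0.986 for Anapc13 and 0.825 for Cdc26. Pttg1, which encodes securin, had a ratio of 1.35 (0.877 to 1.98), an interval that holds 1.

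Of the centromere and kinetochore genes, 10 of the 11 above the minimum were higher, and 15 of the 26 genes of the list lay below it. The median ratio of those above the minimum was 19.7, the highest of the lists. That rank depends on the minimum. Over the summed UMIs of whole lists the ratio was 12.7 here and 15.1 for the cytokinesis list. Cenpa, the histone H3 variant that marks centromeres (chromosome 5, 30666777 to 30674830), had 4.39 UMIs per 10000 in the members and 0.200 in the other cells, a ratio of 22 (17.1 to 28.2), and was detected in 46 members. The kinetochore motor Cenpe stood at 35.8 times, and Spc24 and Spc25, subunits of the NDC80 complex that holds microtubules, at 25.4 and 26.3 times. Hjurp, the chaperone that loads CENPA, had a ratio of 6.2 (3.94 to 9.45). The exception was Zwint at 1.69 (0.971 to 2.77).

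Of 10 genes of the spindle checkpoint and the chromosomal passenger complex, 6 had at least 50 UMIs and all 6 were higher. Cdca8 (borealin) had a ratio of 40.8 (24.9 to 67.7), its partner kinase Aurkb 18 (9.74 to 32.6) and the scaffold Incenp 9.34 (6.02 to 14.2). The checkpoint genes Mad2l1 and Bub1b had ratios of 13 and 9.30. Bub3, which also acts outside mitosis, was the lowest of the list at 3.59 (2.83 to 4.50) and was present in 24.9% of the other cells.

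Spindle, cytokinesis and condensin genes were higher in the same way among those above the minimum, 8 of 9 in the spindle list of 27 genes. Kif11, the kinesin that pushes spindle poles apart (chromosome 19, 37376403 to 37421859), had a ratio of 64.2 (36.0 to 120), the highest among the genes that reached 50 UMIs outside the scoring genes, with 44 UMIs in 32 members and 17 UMIs in the 1995 other cells. Tacc3, which stabilises spindle microtubules, stood at 16.2 times, whereas Nek6 had a ratio of 0.992 and Hn1 one of 2.04. Of 10 cytokinesis genes, the 5 with at least 50 UMIs were higher, led by Prc1, which bundles the microtubules of the central spindle, at 39.9 (24.3 to 66.4), and by the centralspindlin genes Racgap1 (22.7) and Kif23 (18.3). Of 13 condensin and cohesin genes, the 10 with at least 50 UMIs were higher too. The condensin cores Smc2 and Smc4 had ratios of 9.39 and 8.07. The cohesin subunits Smc3 (2.89) and Rad21 (3.79) had lower ones, and Esco2, which locks cohesin on newly copied DNA, had 29.6 (17.0 to 51.9).

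**Figure D3:**
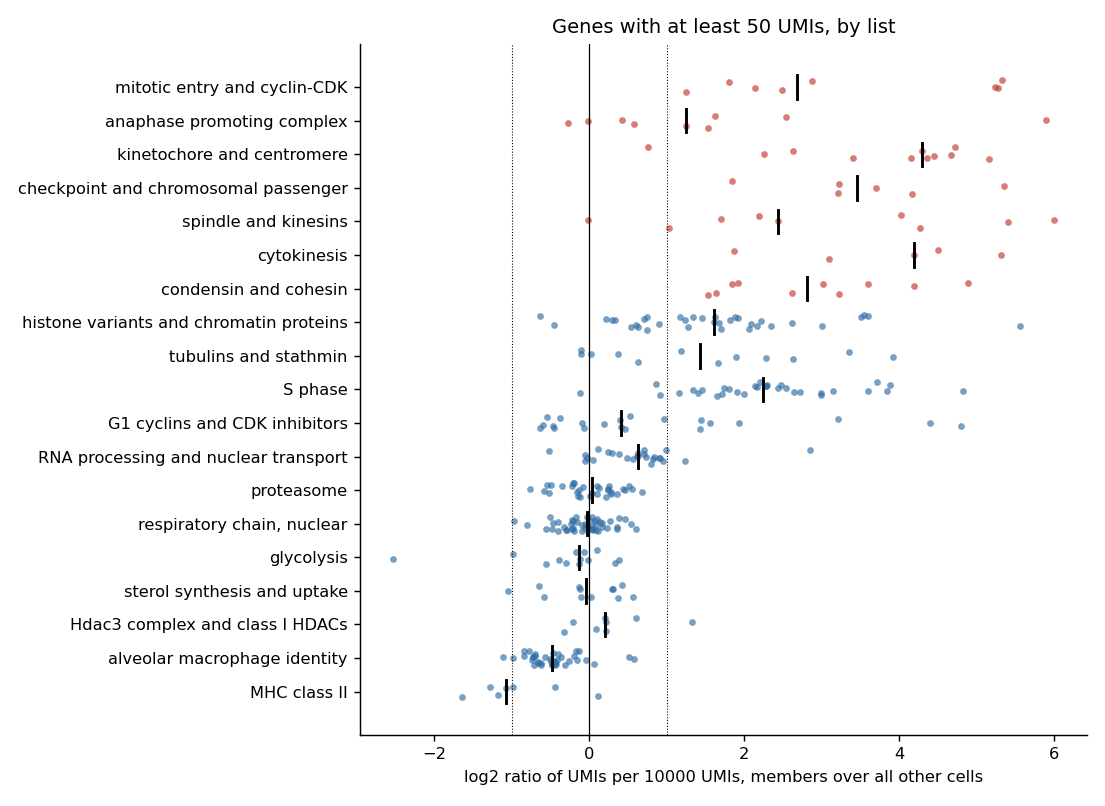
Ratio of UMIs per 10000 UMIs, members over all other cells, on a log2 scale, for the genes with at least 50 UMIs in 19 gene lists. Each point is a gene, black bars are medians, red lists are the 7 lists of other G2/M genes, and dotted lines mark ratios of 0.5 and 2 (a gene without a UMI in 1 group, such as the lowest point of glycolysis, is drawn with 0.5 UMI added to both). The 7 red lists and the S phase list lie mostly to the right of 2, and the proteasome and respiratory chain lists centre on 1.

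Many chromatin and tubulin genes were abundant and higher in the members, and others were not. The 37 genes for histone variants and chromatin proteins gave 306 UMIs per 10000 in the members and 111 in the other cells, and 13 tubulin and stathmin genes gave 116 and 35.1. H2afz, the histone variant H2A.Z, was detected in every member, at 6.46 to 91.7 UMIs per 10000 (median 54.4), and in 93.7% of the other cells, at 0 to 93.1 (median 12.5). Its ratio was 3.69 (3.49 to 3.90). The range of the members lies inside that of the other cells, and the medians differ. Hmgb2, a DNA-bending protein of dividing cells, had a ratio of 11.7 (10.7 to 12.7) and was found in all 60 members and 48.4% of the other cells. Stmn1 and Tubb5, for the microtubule destabiliser stathmin and a beta tubulin, had ratios of 15.1 and 10.3, and Tuba1b one of 6.19. Of the tubulin and stathmin genes with at least 50 UMIs, 7 of 12 were higher (background 8.44%), with a median ratio of 2.72 and ratios below 1 for 2 of them. Of the chromatin genes, 23 of 35 were higher (background 8.44%), and among the others H3f3a (H3.3) had a ratio of 1.22 and H3f3b one of 1.63. Dynll1, a dynein light chain used throughout the cell, had a ratio of 1.01. Hist1h2ap, a histone gene of S phase, had 152 UMIs in the members and 80 in the other cells (ratio 47.1), but all of its 3' sequences (100%) are shared with other histone genes, so the gene behind these reads is uncertain. Shares of 49.5% for Hmgb2, 32.9% for Stmn1, 19.2% for Tuba1b and 16.3% for H2afz also lie in annotated copies.

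Genes of S phase were higher in the members as well. Of the 32 genes with at least 50 UMIs, 29 were higher (background 8.44%), with a median ratio of 4.73. Rrm2, the small subunit of ribonucleotide reductase, stood at 28.2 (21.8 to 36.5), Tk1 (thymidine kinase) at 14.7 and Uhrf1, which maintains DNA methylation behind the fork, at 14.3. Pcna, the sliding clamp of DNA polymerase, had a ratio of 3.14 (2.60 to 3.76), and the replicative helicase subunits Mcm2, Mcm3, Mcm5 and Mcm6 had ratios between 2.23 and 4.61.

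The members were therefore set beside the cells most like them, the 60 other cells with the highest mean log value over 46 S phase genes. Both groups were chosen by measured values, and the comparison is a description. Summed S phase genes gave 39.8 UMIs per 10000 in the members and 51.3 in these S phase cells, against 8.43 in all other cells. The other G2/M genes gave 133 in the members, 58.2 in the S phase cells and 22.8 in all other cells. Mcm6 was higher in the S phase cells (1.86 UMIs per 10000) than in the members (0.572), as were Pcna (7.19 and 4.79) and Mcm2 (0.989 and 0.393). Rrm2, in contrast, had 4.72 in the members and 2.93 in the S phase cells. Late mitotic genes were higher in the members than in the S phase cells. Ccnb1 had 1.39 UMIs per 10000 in the members and 0.0761 in the S phase cells, Cdc20 1.29 and 0.114, and Cenpa 4.39 and 0.685. Cenpe had 1.39 and 0.152, Aurka 0.464 and 0.190, and Plk1 0.286 and 0.0381, the last from 8 UMIs in the members. The median of UMIs per cell was 4156.5 in the S phase cells.

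The members differed among themselves along the same axis. Of 6 late mitotic genes (Ccnb1, Cdc20, Plk1, Aurka, Cenpe and Cenpa), 8 members had no UMI, 13 had a UMI of 1 gene, 18 of 2, 11 of 3, 6 of 4, 3 of 5 and 1 of all 6. The 22 members with a UMI of Ccnb1 had a median of 17.3 UMIs of S phase genes per 10000, and the 38 without it had 47.7. The median depth was 4729 UMIs in the former and 4442 in the latter. This was the widest of the 6 splits. The S phase medians with and without a UMI were 18 and 37.4 for Cdc20, 16.1 and 34.0 for Plk1, 24.2 and 32.2 for Aurka, 26.5 and 33.1 for Cenpe, and 30.5 and 31.8 for Cenpa, which was found in 46 members. Detection of these genes also goes with depth, as the median was 5227.5 UMIs in members with a UMI of Cenpa and 3143 in those without. The same split by Pcna, with a UMI in 38 members, gave S phase medians of 56.6 and 18.3, where Pcna itself is part of the sum. Over the 60 members the S phase sum and the sum of the 6 late genes had a Spearman rho of -0.640. Both sums come from the same cells and are shares of the same total, and most single values rest on a few UMIs. By the S phase list alone, 24 of the 60 members were among the 60 highest of all 2055 cells. The name G2/M phase thus covers cells with late mitotic transcripts and cells that still carried many transcripts of S phase. A UMI of a mitotic gene does not show that a cell was in mitosis, since these transcripts build up in G2. Late mitotic is only the name of the set of 6 genes and does not place a cell late in mitosis. Over the 60 members the score and the S phase sum had a rho of -0.301, with S phase medians of 17.7 UMIs per 10000 at ranks 1 to 10 and 47.0 at ranks 51 to 60.

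**Figure D4:**
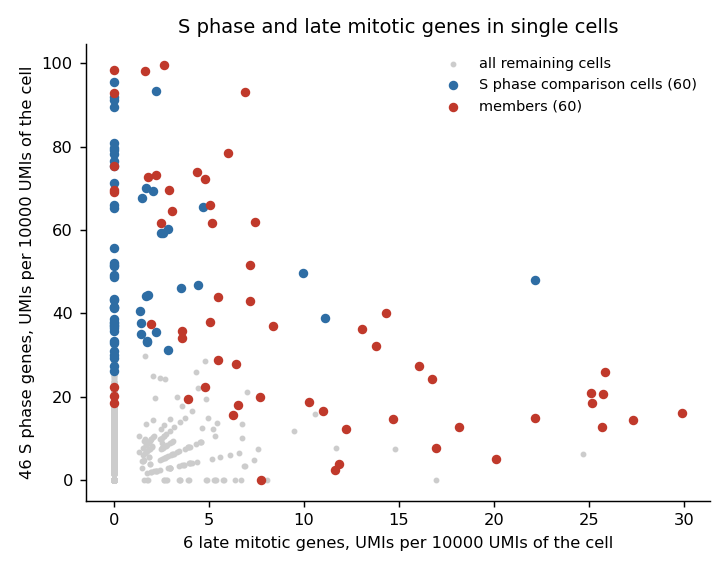
Summed UMIs of 46 S phase genes against those of 6 late mitotic genes, each per 10000 UMIs of the cell, with 1 point per cell. Members are red, the 60 S phase comparison cells blue and all remaining cells grey. Members with the most late mitotic UMIs have few S phase UMIs, and 8 members lie at 0 on the horizontal axis.

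Regulators of the G1 phase were mixed. Of 21 genes with at least 50 UMIs 7 were higher (background 8.44%), 8 had a ratio below 1 and the median ratio was 1.33. Cdkn3, a phosphatase that acts on CDK1 and CDK2, had a ratio of 27.8 (15.6 to 49.7), and Cdkn2c and Cdkn2d, which encode the CDK4 and CDK6 inhibitors p18 and p19, had 21.1 (11.6 to 38.3) and 9.23 (4.85 to 16.7). Cdkn1a, which encodes the inhibitor p21, was detected in 56 members and 80.6% of the other cells, with 10.0 and 7.53 UMIs per 10000. Its ratio of 1.33 (1.18 to 1.5) did not reach 2. Ccnd2 (cyclin D2) had a ratio of 0.684 (0.553 to 0.837) and the antiproliferative gene Btg1 one of 0.725 per 10000 UMIs, while per cell both were close to 1 (0.917 and 0.972). Cdk4 had a ratio of 2.70 and Cdkn1b (p27) one of 0.727 (0.394 to 1.23).

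The respiratory chain and the proteasome showed little difference. No gene was higher (background 8.44%) or lower (background 2.82%) among 47 nuclear genes of the respiratory chain (median ratio 0.982) or 31 proteasome genes (1.03). None of 13 genes of glycolysis or 12 of sterol synthesis was higher. Aldoa, a glycolytic enzyme, came closest to a lower call with 0.505 (0.387 to 0.647). The RNA processing and nuclear transport list was higher in sum, with 96.5 UMIs per 10000 in the members and 61.5 in the other cells. The S phase cells had 89.7, so most of this difference was shared with them. The median ratio of members over all other cells was 1.55, with ratios above 1 for 22 of 26 genes. In this list 2 of 26 genes were called higher, near the background of 8.44%. They were Kpna2, an importin that carries mitotic factors, at 7.20 and Hnrnpa1 at 2.36. For Kpna2, 66.8% of the sequence near the 3' end also occurs in annotated copies. None of 82 ribosomal protein genes (median ratio 0.983) was higher and 1 was lower, Rpl3l, named here after its values were seen, with 4 UMIs in the members and a ratio of 0.238 (0.0645 to 0.614). None of the 13 mitochondrial genes (median ratio 0.860) was higher or lower.

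Identity genes of AMs made up a smaller share of the transcripts of members, while their number per cell was similar. Summed over 39 genes, the members had 473 to 1189 UMIs per 10000 (median 745) and the other cells 158 to 2338 (median 1021). In UMIs per cell the lowest, median and highest values were 70, 325.5 and 830 in the members and 35, 332 and 1252 in the other cells. The median ratio of the 39 genes was 0.716 per 10000 UMIs, with 36 genes below 1, and 0.960 per cell, with 26 below 1. The direction thus depends on the scale for a part of the genes. Over all genes tested the median log2 ratio was 0.018 per 10000 UMIs and 0.44 per cell. Chil3, the chitinase-like protein of AMs, was at 0.891 times per 10000 UMIs and 1.19 times per cell, and Lyz2 (lysozyme) at 0.631 and 0.846. The transcription factor Pparg, needed for the AM identity, had a ratio of 0.911 (0.611 to 1.31) and 1.22 per cell. Siglecf, whose product was used in the sort, had 0.897 (0.640 to 1.22). Maf and Klf factors restrain or permit self-renewal of macrophages. Of the 5 with at least 50 UMIs none was called higher, but with a background of 8.44% so few genes say little. Per 10000 UMIs 4 of them had a ratio below 1, and per cell all 5 lay above 1.

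Only Car4 of the 38 identity genes with at least 300 UMIs was called lower (background 2.82%). Car4, a membrane-bound carbonic anhydrase, had 78 UMIs in the members and 4168 in the other cells, with medians of 1.91 and 4.04 UMIs per 10000 in single cells, and ranges of 0 to 19.8 and 0 to 52.1 that overlap. Its ratio was 0.464 (0.366 to 0.581) per 10000 UMIs and 0.622 per cell. Ear2, an eosinophil-associated ribonuclease of AMs, lay next at 0.507 (0.462 to 0.555) and 0.680 per cell. In the S phase cells both were at the level of the other cells or near it, with 5.52 UMIs per 10000 for Car4 (6.00 in all other cells) and 33.9 for Ear2 (33.9). The transcription factor gene Bhlhe41 had a ratio of 1.42 (1.00 to 1.97).

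**Figure D5:**
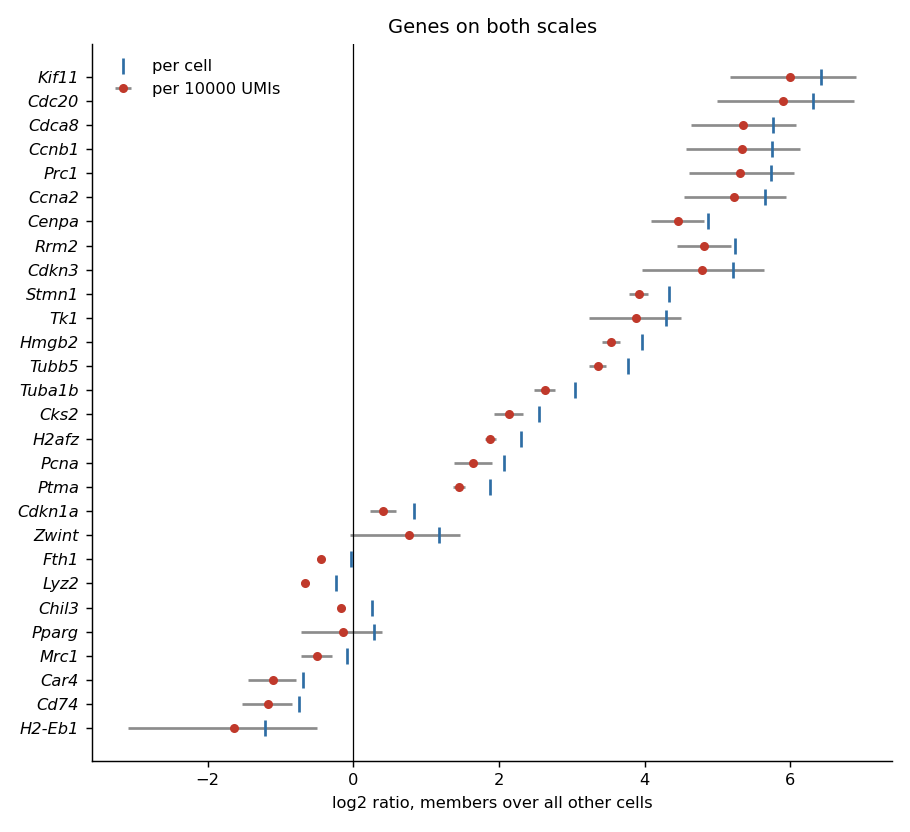
Ratio of members over all other cells on a log2 scale for 28 genes. Red points with grey 95% counting intervals are per 10000 UMIs and blue ticks are per cell. The identity genes Fth1, Chil3, Pparg and Mrc1 lie near 0 on the per-cell scale, and Car4, Cd74 and H2-Eb1 lie below 0 on both scales.

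MHC class II genes, which serve antigen presentation, were mostly lower in the members. Of 6 genes with at least 300 UMIs 4 were called lower (background 2.82%). The ratios were 0.321 (0.117 to 0.705) for H2-Eb1, 0.412 (0.289 to 0.570) for the peptide-loading gene H2-DMa, 0.443 (0.346 to 0.559) for the invariant chain Cd74 and 0.474 (0.292 to 0.728) for H2-Ab1, and H2-Aa lay at 0.503. H2-DMb1 had a ratio of 0.733 (0.424 to 1.18) and the sparse H2-DMb2, with 3 UMIs in the members, one of 1.08 (0.217 to 3.29). Per cell the ratios of the first 5 genes were 0.431, 0.552, 0.594, 0.635 and 0.675. The share of cells with a UMI of Cd74 was alike in members (35%, with an interval of 23.1% to 48.4%) and other cells (33.3%), and the share for H2-Aa was 18.3% and 17.4%. The summed list reached 59.1 UMIs per 10000 in the highest member and 1050 in the highest of the far more numerous other cells. A single member held 41.7% of the Cd74 UMIs of all members. The other cells include cells with up to 59.7 UMIs per 10000 of dendritic cell markers, which were at 0 in every member, and the part of such cells in the lower ratios was not tested. H2-DMa was also found in a smaller share of members, 46.7% against 59.9%, or 15.8% and 44.1% after thinning.

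Immediate-early and chemokine genes were uneven across members. Of 16 immediate-early genes 4 were called higher (background 8.44%) and 7 had a ratio below 1. The called genes included Egr1 (2.14), Nfkbia (2.09) and Jun (2.06), while Fosb (0.543) and Dusp1 (0.657) were lowest. Of 11 chemokine and cytokine genes 3 were called higher (background 8.44%) and 5 had a ratio below 1. The called genes were Cxcl1 at 4.70, Ccl4 at 2.08 and Tnf at 2.06. A single member held 63 of the 95 UMIs of Cxcl1 (66.3%), and 48 members had none. The 3 members with the most held 38.5% of all chemokine and cytokine UMIs. Summed over both lists the median was 77.5 UMIs per 10000 in the members and 83.5 in the other cells. Without the cells above the 95th percentile of UMIs, which leaves 50 members, the ratio was 0.788 for Cxcl1 and 0.461 for Tnf, so these calls rest on a few deep members.

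Hdac3, the floxed gene of the study, was too sparse to compare. It had 4 UMIs in 4 of the 60 members (6.67%, interval 1.85% to 16.2%) and 115 UMIs in the other cells (5.56% of cells). Its ratio was 0.863 (0.231 to 2.27), and 3 UMIs over the members correspond to 0.107 per 10000. The corepressor Ncor1, which activates HDAC3, had a ratio of 1.06 (0.713 to 1.53), and Tbl1x and Tbl1xr1, further subunits of the complex, had 1.17 and 1.15. Gps2, another subunit, was called higher at 2.51 (1.71 to 3.58). It was the only 1 called of the 8 genes of the HDAC3 complex and class I HDACs with at least 50 UMIs. With a background of 8.44%, 1 call among so few genes says little. The related deacetylases Hdac1 and Hdac2 had ratios of 1.51 (0.959 to 2.29) and 1.16 (0.610 to 2.02), and Hdac8 had 1 UMI in the members.

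Of the 655 genes called higher, 128 were in a list and 527 were not. The first 15 outside the lists by ratio, among genes with at least 100 UMIs, were led by 2810417H13Rik (Pclaf, a PCNA-binding factor) at 26.2 (22.5 to 30.6), the long noncoding RNA Lockd at 18.7 (13.7 to 25.6) and Ezh2, the H3K27 methyltransferase, at 11.3 (7.74 to 16.2). Pclaf had a UMI in 53 members (88.3%) and 6.82% of the other cells. The others, with ratios of 4.73 to 8.46, included the replication genes Dbf4, Orc6 and Topbp1, the zinc finger gene Zfp367, the DNA repair gene Rad50, the histone chaperone Dnajc9, the spindle gene Nde1, the nuclear membrane gene Nrm, the DNA sensor gene Mb21d1 (Cgas) and the mitochondrial folate enzyme Mthfd2. Ccdc34 and 2700094K13Rik (Selenoh) complete the list. Some of these genes were found at least as often in the S phase cells. A UMI of Orc6, Topbp1, Zfp367 and Dnajc9 was present in 38.3%, 45%, 38.3% and 50% of the S phase cells. In the members the shares were 25%, 33.3%, 31.7% and 40%. After thinning they were 15.5%, 24.1%, 15.5% and 27.6% in the S phase cells and 15.8%, 24.6%, 15.8% and 24.6% in the members. The remaining genes of the 15 had a UMI in a larger share of members. Many called genes are sparse. Of the 655, 220 had under 10 UMIs in the members, and the interval of the ratio lay above 1 for 500.

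The 15 genes outside the lists with the lowest ratios, among genes with at least 1000 UMIs, had ratios of 0.315 to 0.505 per 10000 UMIs. Hist1h2bc, a histone H2B gene, was lowest at 0.315 (0.180 to 0.514), with a UMI in 15 members (25%) and 40.8% of the other cells, and was also low in the S phase cells (0.266 UMIs per 10000, beside 0.572 in the members and 1.81 in the other cells). Samhd1, which degrades the nucleotides used for DNA synthesis, was next at 0.337 (0.184 to 0.568), with 0.50 UMIs per 10000 in the members, 0.913 in the S phase cells and 1.48 in the other cells. The endoplasmic reticulum chaperones Hspa5 and Calr had ratios of 0.411 (0.331 to 0.505) and 0.448 (0.341 to 0.580). Cd63 (0.372) shares 46.5% of its 3' sequences with a pseudogene. Surface genes of macrophages were also among them, namely Adgre1, which encodes F4/80, at 0.459 and the formyl peptide receptor Fpr2 at 0.464. The rest were Rabac1, Shtn1, Ppp1r14b, Arhgdib, Sepw1, Lpin1, AI607873 and Tmem160. On the per-cell scale, which multiplies every ratio by 1.34, the 15 genes lay between 0.422 and 0.676. Genes chosen for ratios this low could not change direction on that scale.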

How the data were processed

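Single-cell RNA of AMs sorted from 1 WT mouse was used. The authors counted UMIs per gene with Cell Ranger on mm10 and deposited natural log (ln) values, ln of 1 plus UMIs per 10000 UMIs of the cell, made with Seurat, and also deposited a scaled score, regressed on UMIs and mitochondrial share. Their methods describe removing cells over 5% mitochondrial content and ribosomal protein genes, but 384 cells above 5% and 82 such genes are in the tables, which hold 11918 genes (3 without a UMI). Reads and cell calling were not repeated.

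UMI counts were recovered from the steps of the deposited ln values (100% whole within 0.01). The members and gene lists were chosen with earlier results of these data known. Counts were summed over members and over all other cells, with exact Poisson, conditional and Clopper-Pearson intervals at 95%, which cover counting error only. With 1 library no test was made. Higher meant a ratio of at least 2 (50 UMIs) and lower at most 0.5 (300 UMIs). For shares, cells were also thinned to 2000 UMIs (seed 1). Named genes were the scoring genes, list genes with at least 50 UMIs (highest and lowest ratios), the 15 highest and 15 lowest outside the lists (at least 100 and 1000 UMIs), and Hdac3, its complex and Pparg. The late mitotic genes were fixed as a set and include genes below 50 UMIs. Positions came from GENCODE M21 and promoters from RefSeq GRCm38.p6, by symbol or synonym. Shared sequence was searched near transcript ends (the last 300 bases, in windows of 98) as the percent found in another gene, above 1% for 18 genes. Alternatives covered the number of members, the score, the comparison cells, depth, mitochondrial share and filters. Functions were tested on simulated data. Python 3.11.15, numpy 2.4.6, scipy 1.17.1 and pandas 2.3.3 were used.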

Additional observations from a re-analysis of the deposited data

How the results depend on the processing

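No paired analysis was possible because there is 1 library and no replicate. Of the summary values and of the named genes past 2-fold, none changed direction under the alternatives except the ratio of median UMIs per cell, which was 0.812 against the 422 other cells with at least the members' median, by construction of that comparison, and Cxcl1 and Tnf (0.788 and 0.461 without cells above the 95th percentile of UMIs, a setting chosen after seeing the data). On the per-cell scale a gene past 2-fold could not change direction, since every ratio is multiplied by 1.34. The count of higher genes (655) was 1091 with genes of at least 20 UMIs and 2605 without a filter. With cells thinned to 2000 UMIs it was 941, and with the 40 and the 100 highest cells 744 and 501. On the per-cell scale, also chosen after seeing the data, it was 1540. The count of lower genes (91) was 153 with the 40 and 45 with the 100 highest cells, 237 with cells thinned to 2000 UMIs, 38 with genes of at least 500 UMIs, 1008 without a filter and 28 per cell, so it depends most on these choices. The count of higher G2/M genes (52) was 91 and 109 with the filter at 20 UMIs and without it, as more genes enter, and their median log2 ratio (3.05) was 4.19 and 4.28. It stayed between 2.86 and 3.48 otherwise. The higher S phase genes numbered 27 to 41. The median log2 ratio of the identity genes (-0.48) was -0.059 per cell and between -0.54 and -0.42 otherwise. Most members have a few UMIs of any mitotic gene, and with 60 cells of 1 mouse neither the share of dividing AMs nor its spread between mice is measured.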
